A study of Mus musculus with 9 samples.

Results

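The transcripts described here encode the lysosomal proton pump, lysosomal hydrolases other than cathepsins, lysosomal membrane proteins and the factors TFEB and TFE3. The members are 39 genes, chosen by symbol for what they encode and not for their values, out of 53379 genes in the deposited table. Earlier results of these data were known when they were chosen. They comprise 15 genes of the vacuolar proton pump (V-ATPase), 6 of the lysosomal membrane and of sterol export, 16 of luminal hydrolases and their activator, and 2 transcription factors. All 39 were among the 12824 genes tested, which averaged 0.5 FPKM or more over the libraries (FPKM: fragments per kilobase of exon and per 1000000 fragments).

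RNA-seq was performed on bone marrow-derived macrophages (Mϕs) of wild-type C57BL/6 mice. Marrow cells from 3 mice were kept for 3 days with 10 ng/ml CSF-1 (also called MCSF), the growth factor that drives Mϕ differentiation. For 4 more days the control Mϕs then received 10 ng/ml CSF-1 alone, the IL-4 group CSF-1 with 10 ng/ml IL-4, and the IL-6 group CSF-1 with 100 ng/ml IL-6. Each group has 3 libraries, numbered #1 to #3. Which mouse each library came from is not stated, so p-values measure the spread between these libraries, which may be technical. The doses and times are those of the labels and series description. The study's methods give a higher IL-4 dose with the same IL-6 dose and times, and its legends give other doses and times.

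The lysosome digests what a cell engulfs and what it recycles from within, and in Mϕs it handles phagocytosed material. The V-ATPase acidifies it: the cytosolic V1 sector hydrolyzes ATP, and the V0 sector in the membrane carries protons into the lumen, where the hydrolases need low pH. TFEB and TFE3 are basic helix-loop-helix factors that bind variants of the E-box CACGTG in many lysosomal genes, a network known as CLEAR.

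Because TFEB and TFE3 are among the members, the sequence before the transcription start of each member was examined for this E-box. Windows from 250 bases before to 50 bases after the start were taken from RefSeq (GRCm38.p6) and searched on both strands for CACGTG, for TCACGTG with its complement CACGTGA, and for CACGTG with GT before and AC after it. The shorter motifs lie within the longer ones, so the counts overlap. A window was found for 33 of the 39 members, and none for Atp6v1b2, Atp6v1c1, Atp6v1g1, Atp6v1h, Npc1 and Asah1. CACGTG lay in the windows of 11 of the 33 members (33.3%), against 8.09% of all 27025 genes with a window. TCACGTG lay in the same 11 members, against 4.29% of all genes, and the longest form in 0 of the 33, against 0.37%. The 11 members held 17 sites, all of them with T before or A after the 6 letters, and 6 with both. A match describes letters only, and binding was not measured.

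The sites are printed so that their flanks can be compared across genes of different function. Beyond the letter next to CACGTG the printed bases differ from gene to gene. Each line gives 30 bases, 5′ to 3′ on the strand of the gene, with CACGTG in capitals together with a T before it or an A after it, and the distance is that of the C of CACGTG.
Atp6v0b (chr4:117887348-117887377, minus strand, 36 bases before the start): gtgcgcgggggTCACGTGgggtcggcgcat
Atp6v0b (chr4:117887330-117887359, minus strand, 18 bases before the start): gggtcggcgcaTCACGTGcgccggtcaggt
Atp6v0d1 (chr8:105566050-105566079, minus strand, 3 bases before the start): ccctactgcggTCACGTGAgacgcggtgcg
Atp6v0e (chr17:26676387-26676416, plus strand, 3 bases after the start): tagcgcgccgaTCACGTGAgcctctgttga
Atp6v1a (chr16:44139373-44139402, minus strand, 131 bases before the start): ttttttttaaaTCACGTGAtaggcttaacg
Mcoln1 (chr8:3500436-3500465, plus strand, 71 bases before the start): ggtcgcgcttgTCACGTGttcagttcaggc
Mcoln1 (chr8:3500462-3500491, plus strand, 45 bases before the start): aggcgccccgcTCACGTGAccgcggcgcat
Gla (chrX:134601215-134601244, minus strand, 227 bases before the start): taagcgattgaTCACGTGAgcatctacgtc
Gla (chrX:134601182-134601211, minus strand, 194 bases before the start): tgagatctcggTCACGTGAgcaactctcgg
Glb1 (chr9:114401018-114401047, plus strand, 48 bases before the start): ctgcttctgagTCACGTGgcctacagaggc
Naglu (chr11:101070009-101070038, plus strand, 73 bases before the start): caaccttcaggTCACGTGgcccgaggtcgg
Lgmn (chr12:102439124-102439153, minus strand, 49 bases before the start): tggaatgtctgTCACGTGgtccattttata

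For 3 members the 250 bases before the start are given, with CACGTG in capitals. Lamp1 is shown because its window held more sites than that of any other member, 4 of the 17, and Gaa because it holds a site and is among the largest falls under IL-4 below. Atp6v0a1 is shown because its change was the largest of all members and its window holds no CACGTG. All distances are from the RefSeq start, and the M21 annotation begins Atp6v0a1 upstream of it. By the M21 annotation, the printed sites of Atp6v1a, Lgmn and Naglu lie after the start of the gene. The same holds for the Mcoln1 site printed at 45 bases. Which start these cells use was not measured. Lamp1 and the sites of members not among the largest changes were chosen after their values were seen.
Lamp1 (chr8:13158911-13159160, plus strand): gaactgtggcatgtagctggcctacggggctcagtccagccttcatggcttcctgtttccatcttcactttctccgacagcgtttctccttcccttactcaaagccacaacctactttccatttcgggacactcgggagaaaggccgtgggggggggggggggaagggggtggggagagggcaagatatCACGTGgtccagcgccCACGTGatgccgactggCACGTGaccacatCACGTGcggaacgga
Gaa (chr11:119267713-119267962, plus strand): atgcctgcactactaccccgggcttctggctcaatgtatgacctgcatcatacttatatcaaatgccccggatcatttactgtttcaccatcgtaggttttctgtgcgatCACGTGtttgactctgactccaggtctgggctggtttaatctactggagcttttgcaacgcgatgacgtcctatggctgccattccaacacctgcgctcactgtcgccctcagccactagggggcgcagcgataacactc
Atp6v0a1 (chr11:101010148-101010397, plus strand): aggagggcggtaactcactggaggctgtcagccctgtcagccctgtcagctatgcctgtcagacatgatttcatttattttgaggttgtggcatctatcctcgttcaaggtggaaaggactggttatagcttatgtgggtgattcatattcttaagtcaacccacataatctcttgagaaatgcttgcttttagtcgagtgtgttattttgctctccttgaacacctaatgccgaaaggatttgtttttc

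The libraries held 29988160 to 39909571 fragments. All 8 Mϕ markers were detected in all libraries, among them Csf1r, Adgre1 and Cd68, and their summed FPKM was 16662 to 18966 in control, 6021 to 7062 in IL-4 and 20369 to 21461 in IL-6 libraries. Lyz2 supplied most of this sum, and single markers went against it: Itgam was higher in all IL-4 than in all control libraries, and Cd68 was lower in all IL-6 than in all control libraries. IL-4 #3 stood apart from the other IL-4 libraries. Of 1000000 fragments, 28.4 to 42.3 came from 14 intestinal genes, which Mϕs should lack, in the control libraries and IL-4 #1 (set A) and 0.0990 to 0.245 in the other 5 libraries (set B). All control libraries are in set A and all IL-6 libraries in set B, so the set and the IL-6 treatment cannot be told apart except through the IL-4 libraries, which lie in both. Values adjusted for the set, by a further term of the model, are given beside the members' calls whose outcome they change and for some of the members described in full.

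Levels of the members spanned 3 orders of magnitude, from a mean over all libraries of 9.60 FPKM for Smpd1, acid sphingomyelinase, to 10162 FPKM for Psap. Psap encodes prosaposin, the precursor of the activator proteins that present sphingolipids to their hydrolases. Its FPKM were 10364, 11771 and 11219 in Control #1 to #3, 10141, 10605 and 10747 in IL-4 #1 to #3, and 8830, 9284 and 8502 in IL-6 #1 to #3. It alone made up 2.43% to 3.21% of the summed FPKM of a library, and the 39 members together 3.85% to 5.02%. The IL-6 libraries were all below the control libraries for Psap, but the difference did not pass the test (log2 fold change −0.32 with a standard error, SE, of 0.13, limma adjusted p = 0.178). Smpd1 lay at 10.2, 10.9 and 12.5 FPKM in control, at 8.55, 7.79 and 8.34 under IL-4, and at 8.81, 9.67 and 9.57 under IL-6, and fell under IL-4 by 0.44 on the log2 scale (SE 0.12, adjusted p = 0.0289). That fall did not pass adjusted for the set (adjusted p = 0.233). In bulk RNA, fewer cells of a type and less RNA per cell cannot be told apart.

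Between IL-4 and control, 4 members rose and 8 fell at an adjusted p under 0.05. Of all genes tested, 8.55% rose and 16.3% fell, so members passed at rates not far from those of all genes. The rises were in Atp6v0a1, Atp6v1b2, Atp6v1h and Lamp2, and the falls in Lamp1, Mcoln1, Gaa, Hexa, Idua, Neu1, Naglu and Smpd1. In this fit 3 of 4 rises were subunits of the pump and none of its 15 genes fell, whereas 6 of the 8 falls were luminal hydrolases and none of the 16 rose. Without IL-4 #3, 4 pump genes rose and 1, Atp6v0b, fell (adjusted p = 0.0377), and 6 hydrolases fell and 1, Manba, rose (adjusted p = 0.0137). The median log2 fold change was 0.02 over the pump genes, −0.45 over the luminal hydrolases and activator, and −0.20 over all genes tested. Without IL-4 #3 these medians were −0.04, −0.12 and −0.07, and adjusted for the set −0.18, −0.16 and −0.06, so the pump genes and the hydrolases lay closer together in both fits. Adjusted for the set, 3 members rose and 4 fell (4.57% and 6.09% of all genes). After median-ratio rescaling of the libraries, the all-gene median was −0.01, that of the 39 members was 0.08 instead of −0.12, that of the pump genes 0.22 and that of the hydrolases −0.25, and 4 members rose and 4 fell (12.3% and 12.6% of all genes). The falls of Gaa, Idua, Mcoln1 and Naglu passed after rescaling, and those of Lamp1, Hexa, Neu1 and Smpd1 did not. Among all genes the rescaling brought the calls to 1574 higher and 1618 lower, from 1096 and 2090. The difference between pump genes and hydrolases was not tested.

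Between IL-6 and control, no member rose and 7 fell (17.9% of the members), in a comparison in which 4.58% of all genes rose and 3.82% fell. The falls were in Atp6v0a1, Atp6v1b2, Atp6v1c1, Mcoln1, Gusb, Naglu and Tfeb. The count of rises was 0 with limma on log2 FPKM, 0 at an unadjusted p under 0.05 (9.9% of all genes), and 0 with limma voom on fragments, which held 37 of the 39 members. At an unadjusted p under 0.05, 14 members were lower (11.4% of all genes). The log2 fold change was below 0 for 33 of the 39 members, with a median of −0.27 against −0.00 over all genes tested. The IL-6 libraries all lay below the control libraries for 23 of the 39 members (23.2% of all genes did) and all above for 3 (20.0%). In the fit adjusted for the set, none of the 7 falls passed (0.312% of all genes fell), and the median over the members was −0.38 against 0.20 over all genes. Both adjusted medians depend on the IL-4 libraries, IL-4 #3 among them, from which the set effect was taken. After median-ratio rescaling the falls of Atp6v1c1, Gusb, Naglu and Tfeb did not pass (adjusted p = 0.0569, 0.101, 0.0511 and 0.0563), and Man2b1, alpha-mannosidase, fell (adjusted p = 0.0326), which made 0 rises and 4 falls (5.33% and 3.67% of all genes). Without IL-4 #3 the number of falls was 14 (12.4% of all genes), and it was 1 without Control #2, Control #3 or IL-6 #3, 2 without IL-6 #1 and 3 without IL-6 #2. The shares of all genes in these last fits are not given, so their counts do not set the members apart from all genes.

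**Figure D1:**
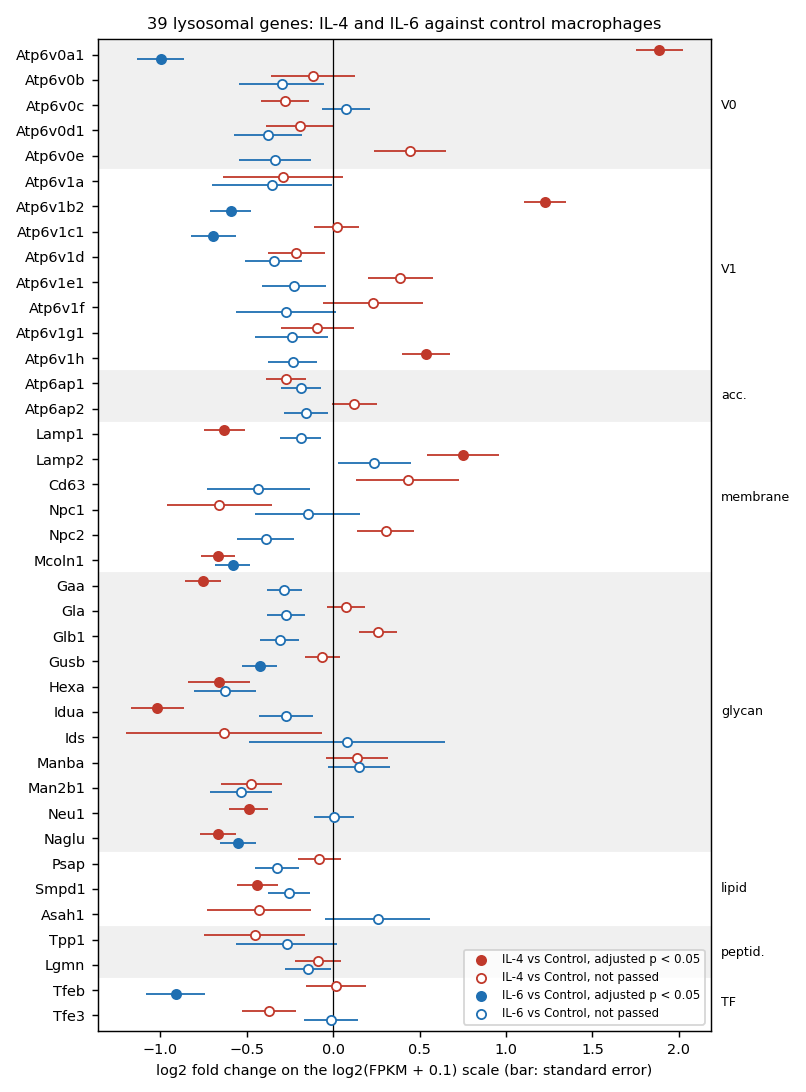
Log2 fold change of the 39 members against control Mϕs (x axis, log2(FPKM + 0.1) scale, bars for the SE) for IL-4 (red) and IL-6 (blue), ordered by role (acc., accessory; TF, transcription factor). Filled points passed at an adjusted p under 0.05: 4 to the right and 8 to the left for IL-4, and 7 to the left for IL-6.

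The a subunit of V0, an integral membrane protein along which protons pass, gave the largest change of all members. Atp6v0a1 (chromosome 11, 101009452 to 101063719, plus strand) encodes its a1 isoform. FPKM were 56.2, 54.8 and 61.1 in Control #1 to #3, 217, 249 and 177 in IL-4 #1 to #3, and 28.3, 29.1 and 28.6 in IL-6 #1 to #3. All IL-4 libraries were thus above and all IL-6 libraries below all control libraries, and no groups overlapped. The log2 fold change was 1.89 under IL-4 (SE 0.14, adjusted p = 4.06e-05) and −0.998 under IL-6 (adjusted p = 0.00342), and the mean was 3.73 times control under IL-4 and 0.499 times control under IL-6. Atp6v0a1 passed in both comparisons with each of the 9 libraries left out in turn. In the fit adjusted for the set the IL-4 change was 1.92 (adjusted p = 0.0014) and the IL-6 change −0.95 (adjusted p = 0.135). Within set A, IL-4 #1 held 3.78 times the control mean, which is the comparison behind the adjusted IL-4 change and not a further one. Within set B the IL-6 mean was 0.135 times that of IL-4 #2 and #3.

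Other genes can supply the a subunit: Tcirg1 encodes the a3 isoform, best known from the osteoclast, and Atp6v0a2 encodes a2. Per length, Atp6v0a1 made up 19.8%, 17.6% and 20.0% of the summed FPKM of these 3 genes in control, 43.3%, 43.9% and 32.9% under IL-4, and 13.2%, 13.5% and 13.6% under IL-6. The mean share was 19.1% ± 1.36 (SD, n = 3) in control, 40.0% ± 6.17 under IL-4 and 13.5% ± 0.206 under IL-6, and no groups overlapped (two-sided exact permutation test, p = 0.1 for each pair of groups, the smallest that 3 against 3 libraries allow). Tcirg1 itself was the more abundant gene throughout, with 220.2 to 251 FPKM in control, 273 to 355 under IL-4 and 172 to 176 under IL-6, and neither cytokine changed it past the test (adjusted p = 0.0536 and 0.0797). Without IL-4 #3 it passed in both comparisons, higher under IL-4 (adjusted p = 0.0378) and lower under IL-6 (adjusted p = 0.00822).

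The d subunit links the stalk of V1 to the proton-carrying ring. Its d1 isoform, the member Atp6v0d1, is made widely, whereas Atp6v0d2 is enriched in osteoclasts and some Mϕs. Atp6v0d1 did not pass with either cytokine, at 135 to 188 FPKM in control, 117 to 187 under IL-4 and 118 to 130.3 under IL-6. Atp6v0d2, not a member, lay at 147, 169 and 195 FPKM in control, 579.6, 654 and 506 under IL-4, and 37.1, 46.9 and 45.2 under IL-6. Its log2 fold change was 1.77 under IL-4 (adjusted p = 0.000149) and −1.98 under IL-6 (adjusted p = 0.000278, and 0.0326 adjusted for the set). Atp6v0d2 thus supplied 52.2%, 47.3% and 54.0% of the d subunit FPKM in control, 83.2%, 83.5% and 73.0% under IL-4, and 24.0%, 26.5% and 26.4% under IL-6. These shares did not overlap between groups, with the same exact p = 0.1. The shares were chosen for display after the values were seen.

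**Figure D2:**
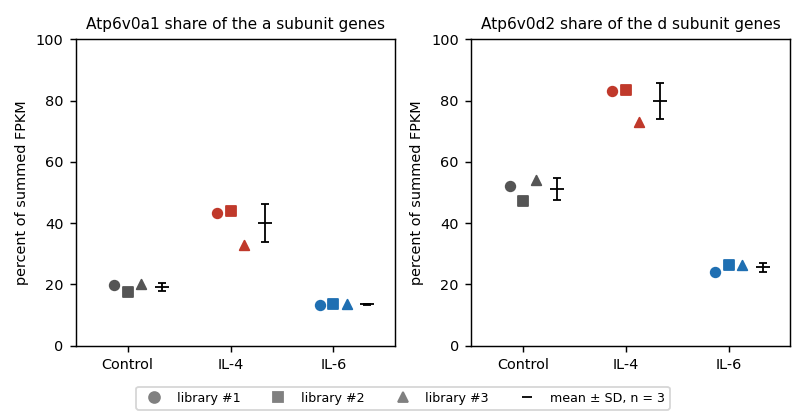
Share of the summed FPKM (y axis, percent) that Atp6v0a1 held among the a subunit genes and Atp6v0d2 among the d subunit genes, 1 point per library, marked by library number, with the mean ± SD of 3 libraries. In both panels the IL-4 libraries lie above and the IL-6 libraries below all control libraries, and IL-4 #3 is the lowest of the IL-4 libraries.

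Since the a3 and d2 isoforms are well known from osteoclasts, the osteoclast markers are given beside these values. Their summed FPKM over 8 genes was 75.0 to 93.6 in control, 361 to 568 under IL-4 and 74.9 to 115 under IL-6. The markers moved unevenly: Ctsk, Acp5, Ocstamp and Dcstamp were higher in all IL-4 than in all control libraries, and Mmp9 and Nfatc1 were lower. Calcr and Oscar lay between 0 and 0.0893 FPKM in every library. Acp5 also stands in the list of other hydrolases below. The part of these markers in the pump results was not tested.

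The other V0 members passed in neither comparison with control. Atp6v0c, the proteolipid of the rotating ring, had log2 fold changes of −0.28 and 0.08 under IL-4 and IL-6, and its reads may be shared with the pseudogene Atp6v0c-ps2 (mean 29.6 FPKM). Atp6v0b, which encodes a further ring protein, had −0.12 and −0.30, and 11.8% of its exon bases overlap an antisense gene. Atp6v0e, a small membrane subunit, lay at 38.0, 55.7 and 49.6 FPKM in control, 54.7, 56.0 and 86.7 under IL-4 and 35.8, 39.1 and 37.1 under IL-6. Its IL-4 libraries all exceeded its IL-6 libraries, and it was lower under IL-6 than under IL-4 (log2 fold change −0.78, SE 0.21, adjusted p = 0.0215), although it passed in neither comparison with control. This difference passed in 6 of the 9 fits that left out a library.

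In the catalytic V1 sector 3 of 8 members passed in a comparison with control. Under IL-4, 2 rose and 0 fell (8.55% and 16.3% of all genes). Under IL-6, 0 rose and 2 fell (4.58% and 3.82% of all genes). Whether this sector differs from all genes was not tested. Atp6v1b2 (chromosome 8, 69088646 to 69113711, plus strand) encodes the B2 isoform of the B subunit, which together with the A subunit forms the ATP-hydrolyzing head. FPKM were 111, 131 and 135 in control, 299.5, 311 and 271 under IL-4, and 79.4, 85.4 and 84.6 under IL-6. No groups overlapped, and the log2 fold change was 1.23 under IL-4 (SE 0.12, adjusted p = 0.000205) and −0.59 under IL-6 (adjusted p = 0.0195). The rise under IL-4 passed with each library left out, and also after adjusting for the set (adjusted p = 0.0043). The fall under IL-6 passed in 4 of the 9 fits without a library and did not pass adjusted for the set (adjusted p = 0.252).

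The partner of Atp6v1b2 in the head, Atp6v1a, passed in no comparison. It encodes the catalytic A subunit and lay at 143, 96.6 and 121 FPKM in control, 136, 128 and 52.2 under IL-4, and 104, 87.6 and 87.1 under IL-6, so all groups overlapped. The ratio of Atp6v1b2 to Atp6v1a FPKM was 0.779, 1.36 and 1.12 in control, 2.21, 2.42 and 5.20 under IL-4, and 0.764, 0.975 and 0.971 under IL-6. In the protein complex A and B subunits alternate in equal number, a fact about protein that these transcript levels do not measure. The highest ratio is that of IL-4 #3, in which Atp6v1a was lowest. The ratios overlapped between control and IL-6 libraries but not between IL-4 and the others.

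Atp6v1c1 (chromosome 15, 38661933 to 38692446, plus strand), the C subunit that regulates the joining of V1 to V0, fell under IL-6 and not under IL-4. FPKM were 49.3, 58.6 and 59.5 in control, 49.0, 59.4 and 61.8 under IL-4, and 32.9, 36.0 and 34.2 under IL-6. The IL-6 libraries lay below all others, whereas the control and IL-4 libraries overlapped, and the log2 fold change was −0.69 under IL-6 (SE 0.13, adjusted p = 0.0139) and 0.02 under IL-4 (adjusted p = 0.919). The IL-6 fall passed in 4 of 9 fits without a library, and neither adjusted for the set (adjusted p = 0.0682) nor after median-ratio rescaling (adjusted p = 0.0569). The direct difference from IL-4 was −0.72 (adjusted p = 0.00367) and passed with each library left out.

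Atp6v1h, the H subunit that stops free V1 from hydrolyzing ATP, rose under IL-4 from 15.0 ± 1.92 to 21.8 ± 2.41 FPKM (SD, n = 3), with a log2 fold change of 0.54 (SE 0.14, adjusted p = 0.0242). Its control and IL-4 libraries did not overlap, and the rise did not pass adjusted for the set (adjusted p = 0.309). The stalk subunits Atp6v1d, Atp6v1e1, Atp6v1f and Atp6v1g1 passed in neither comparison with control, with log2 fold changes of −0.21 to 0.39 under IL-4 and −0.34 to −0.23 under IL-6. Atp6v1e1 was lower under IL-6 than under IL-4 (log2 fold change −0.62, adjusted p = 0.035), as was Atp6v1h (−0.77, adjusted p = 0.00372). The accessory proteins Atp6ap1 and Atp6ap2, which aid assembly and traffic of the pump, passed in no comparison.

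**Figure D3:**
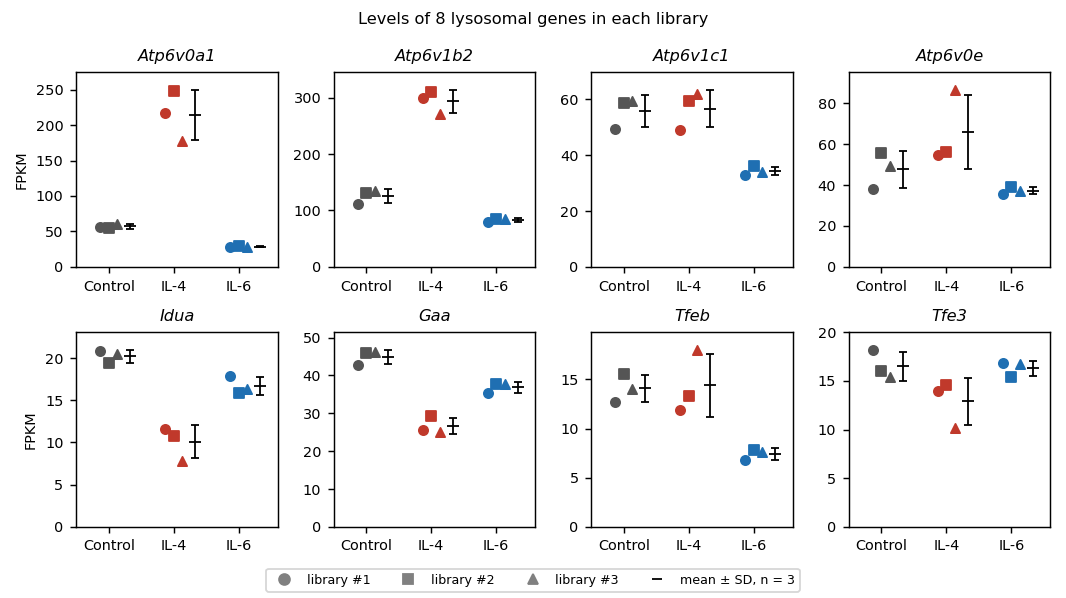
FPKM (y axis, from 0) of 8 members in each library, marked by library number, with the mean ± SD of 3 libraries per group. Atp6v0a1 and Atp6v1b2 are higher under IL-4 and lower under IL-6 than in control. Idua and Gaa are lowest under IL-4, and Atp6v1c1 and Tfeb are lowest under IL-6. For Atp6v0e the IL-4 libraries lie above the IL-6 libraries, and the control libraries overlap both. The group means of Tfe3 lie closest together relative to their size.

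At the lysosomal membrane the members diverged. Lamp1 and Lamp2 encode the most abundant glycoproteins of this membrane. Lamp1 fell under IL-4 from 1300.4 ± 64.4 to 842 ± 73.4 FPKM (SD, n = 3, log2 fold change −0.63, adjusted p = 0.00596), but its fall did not pass after median-ratio rescaling (adjusted p = 0.0602) or adjusted for the set (adjusted p = 0.0863). Of its exon bases, 9.31% overlap Grtp1, a protein-coding gene on the other strand. Lamp2 rose under IL-4, at 67.6, 53.2 and 62.5 FPKM in control, 127, 116 and 72.5 under IL-4, and 76.3, 70.6 and 68.4 under IL-6. The log2 fold change of Lamp2 under IL-4 was 0.75 (SE 0.21, adjusted p = 0.0331), and of the 9 fits without a library it passed only in that without IL-4 #3, which held the lowest IL-4 value.

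Mcoln1, a channel that releases calcium from lysosomes, was lower with both cytokines. FPKM were 14.6, 14.5 and 13.9 in control, 8.98, 9.22 and 8.73 under IL-4, and 9.71, 9.77 and 9.10 under IL-6, so that control libraries lay above all others. Its log2 fold change was −0.67 under IL-4 (adjusted p = 0.00183) and −0.58 under IL-6 (adjusted p = 0.00914, and 0.183 adjusted for the set). The sterol exporters Npc1 and Npc2 and the tetraspanin Cd63 did not pass against control, with log2 fold changes of −0.66 to 0.43 under IL-4 and −0.43 to −0.15 under IL-6. Npc2 was lower under IL-6 than under IL-4 (−0.69, adjusted p = 0.013), and Cd63 had −0.86 there (adjusted p = 0.0546). Adjusted for the set, Cd63 had −1.10 in that comparison and passed. Cd63 has a pseudogene, Cd63-ps, with a mean of 6.59 FPKM.

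Among 11 glycan hydrolases, 5 fell under IL-4 (16.3% of all genes did) and 2 under IL-6 (3.82%), and none rose with either. The IL-4 falls were 3 both after rescaling (12.6% of all genes) and adjusted for the set (6.09%). Without IL-4 #3 there were 5 falls (22.5% of all genes) and 1 rise, that of Manba (15.3%). Idua (chromosome 5, 108660331 to 108684557, plus strand) encodes alpha-L-iduronidase, which degrades heparan and dermatan sulfate. FPKM were 20.8, 19.4 and 20.5 in control, 11.6, 10.8 and 7.86 under IL-4, and 17.9, 15.9 and 16.4 under IL-6. The 3 groups did not overlap, and the log2 fold change was −1.02 under IL-4 (SE 0.15, adjusted p = 0.00209) and −0.27 under IL-6 (adjusted p = 0.375). The fall under IL-4 passed with each library left out, and also after adjusting for the set (adjusted p = 0.0446). Of the exon bases of Idua, 6.30% overlap another gene.

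Gaa (chromosome 11, 119267887 to 119285454, plus strand) encodes acid alpha-glucosidase, which degrades glycogen in the lysosome. FPKM were 42.7, 45.8 and 46.2 in control, 25.7, 29.2 and 25.1 under IL-4, and 35.3, 37.7 and 37.7 under IL-6, again with no overlap between groups. Its log2 fold change was −0.75 under IL-4 (SE 0.10, adjusted p = 0.00119, and 0.0143 adjusted for the set) and −0.28 under IL-6 (adjusted p = 0.157). It was higher under IL-6 than under IL-4 (0.47, adjusted p = 0.00912), but not after median-ratio rescaling (adjusted p = 0.108).

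Naglu, which acts on heparan sulfate as Idua does, lies 6292 bases beyond the end of Atp6v0a1 on chromosome 11. It fell with both cytokines, from 91.6 ± 6.15 FPKM in control to 57.7 ± 1.74 under IL-4 and 62.4 ± 3.73 under IL-6 (SD, n = 3). Its log2 fold change was −0.66 under IL-4 (adjusted p = 0.00231) and −0.55 under IL-6 (adjusted p = 0.014, and 0.17 adjusted for the set), so that under IL-4 these neighbours moved in opposite directions. Hexa, the alpha chain of beta-hexosaminidase, fell under IL-4 (−0.66, adjusted p = 0.0283), with 12.8% of its exon bases overlapping Tmem202, a protein-coding gene on the other strand. Neu1, lysosomal sialidase, also fell (−0.49, adjusted p = 0.0153). Adjusted for the set, the fall of Naglu under IL-4 passed (adjusted p = 0.0231), whereas those of Hexa (0.0815) and Neu1 (0.0501) did not. Gusb, beta-glucuronidase, fell under IL-6 (−0.42, adjusted p = 0.0381), but not adjusted for the set (adjusted p = 0.291). The other glycan hydrolases Gla, Glb1, Ids, Manba and Man2b1 passed in neither comparison with control, with log2 fold changes of −0.63 to 0.26 under IL-4 and −0.53 to 0.15 under IL-6. Asah1, acid ceramidase, and the peptidases Tpp1 and Lgmn also did not pass, with −0.45 to −0.09 under IL-4 and −0.27 to 0.26 under IL-6.

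Tfeb (chromosome 17, 47737030 to 47792419, plus strand) fell under IL-6. FPKM were 12.7, 15.5 and 14.1 in control, 11.9, 13.3 and 18.0 under IL-4, and 6.78, 7.87 and 7.67 under IL-6, so the IL-6 libraries lay below all others and the control and IL-4 libraries overlapped. The log2 fold change was −0.91 under IL-6 (SE 0.17, adjusted p = 0.0147) and 0.02 under IL-4 (adjusted p = 0.953). The IL-6 fall passed in 4 of 9 fits without a library, and did not pass adjusted for the set (adjusted p = 0.0807) or after median-ratio rescaling (adjusted p = 0.0563). Within set B the IL-6 mean of Tfeb was 0.474 times that of IL-4 #2 and #3, and the direct difference from IL-4, −0.93, passed with each library left out (adjusted p = 0.00413). Tfe3, the paralog, lay at 18.2, 16.0 and 15.4 FPKM in control, 14.0, 14.6 and 10.1 under IL-4 and 16.8, 15.4 and 16.7 under IL-6. It passed in no comparison, with a log2 fold change of −0.37 under IL-4 and −0.01 under IL-6.

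Among the 11 members whose window held CACGTG, 0 rose and 4 fell under IL-4 (median log2 fold change −0.19), and 0 rose and 2 fell under IL-6 (median −0.31). Among the 22 members with a window and no CACGTG, 2 rose and 4 fell under IL-4 (median −0.15), and 0 rose and 3 fell under IL-6 (median −0.27). Of all genes tested, 8.55% rose and 16.3% fell under IL-4 (median −0.20), and 4.58% rose and 3.82% fell under IL-6 (median −0.00). The difference between these sets of members was not tested.

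Set directly against IL-4, IL-6 gave 4 members higher and 11 lower, against 20.8% and 13.3% of all genes. Higher under IL-6 were Lamp1, Gaa, Idua and Neu1. Lower were Atp6v0a1, Atp6v0e, Atp6v1b2, Atp6v1c1, Atp6v1e1, Atp6v1h, Npc2, Gla, Glb1, Gusb and Tfeb. Of the 15 pump genes 6 were lower and none higher, with a median of −0.28, while all genes tested had a median of 0.22. The difference in Atp6v0a1 was −2.88 (adjusted p = 2.77e-06) and in Atp6v1b2 −1.82 (adjusted p = 1.62e-05). With median-ratio rescaling the counts were 1 higher (Idua) and 13 lower (17.8% and 17.2% of all genes), and the rescaled median of all genes was 0.02. In the fit adjusted for the set, 4 members were higher and 12 lower (24.7% and 14.6% of all genes). Few members changed by 1 or more on the log2 scale: 2 rose and 1 fell under IL-4 (5.02% and 8.89% of all genes), 0 rose and 0 fell under IL-6 (3.49% and 1.89%), and 0 were higher and 2 lower under IL-6 than under IL-4 (13.6% and 6.82%). Both comparisons with control share the 3 control libraries, so their values are set side by side here and not correlated.

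**Figure D4:**
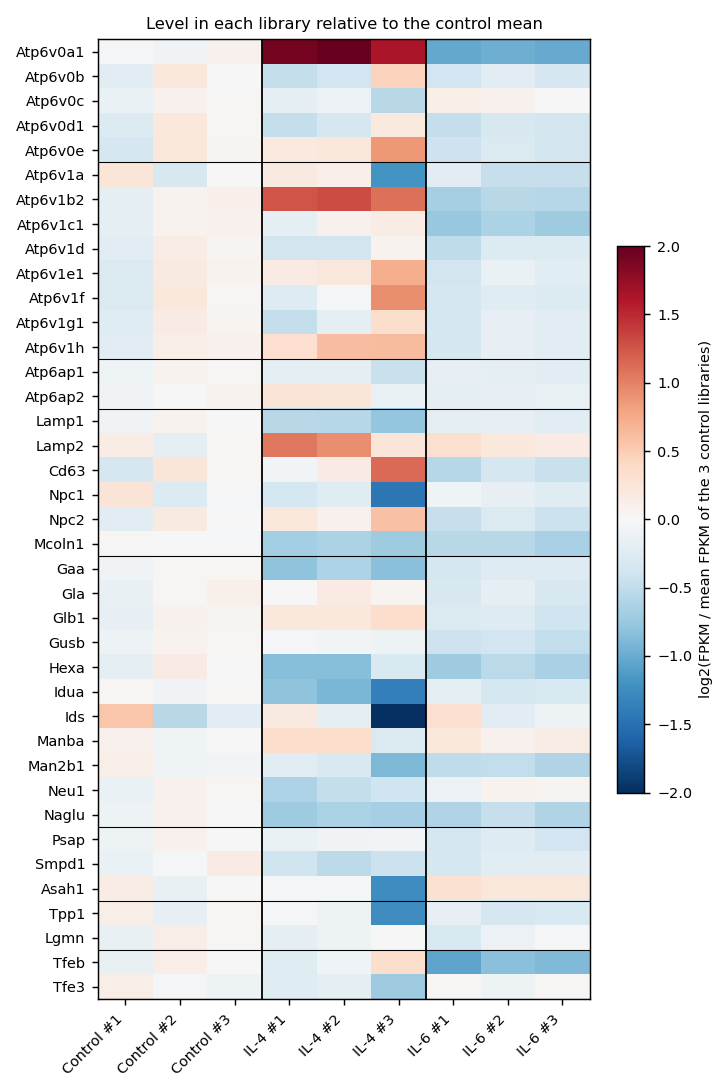
Log2 of FPKM over the mean of the 3 control libraries (color, from −2 in blue to 2 in red) for the 39 members (lines) in each of the 9 libraries (columns), with roles divided by horizontal lines. IL-4 #3 differs from IL-4 #1 and #2 across many members, whereas the 3 IL-6 libraries look alike.

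The spread among the IL-4 libraries bears on each of these results. The median coefficient of variation over the 39 members was 10.1% in control, 18.6% under IL-4 and 5.19% under IL-6, and it exceeded 25% for 12 members under IL-4 and for 1 in control. Relative to the mean of IL-4 #1 and #2, IL-4 #3 ranged from −2.17 on the log2 scale for Ids, iduronate sulfatase, to 1.07 for Atp6v1f. The departure went with gene length: its median was 0.14 over the 19 members with shorter exons (1063 to 4110 bases) and −0.28 over the 18 with longer exons (4204 to 9746 bases). Across the 37 members with a known length, Pearson's r with log2 exon length was −0.483, and it was −0.350 over 10913 genes. Computed in the same way against the other libraries of its group, r over the members was as large in some other libraries, at 0.464 for Control #1, −0.479 for Control #2, 0.491 for IL-4 #1 and 0.531 for IL-4 #2, and from −0.325 to 0.321 for the remaining 4. The departures themselves were larger in IL-4 #3, with an SD over the members of 0.682 on the log2 scale against 0.0754 to 0.383 in the other libraries. These are correlations across genes of 1 library, which are not independent replicates, and the libraries of a group share each other as reference. Without IL-4 #3, 6 members rose and 9 fell under IL-4, against 15.3% and 22.5% of all genes.

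**Figure D5:**
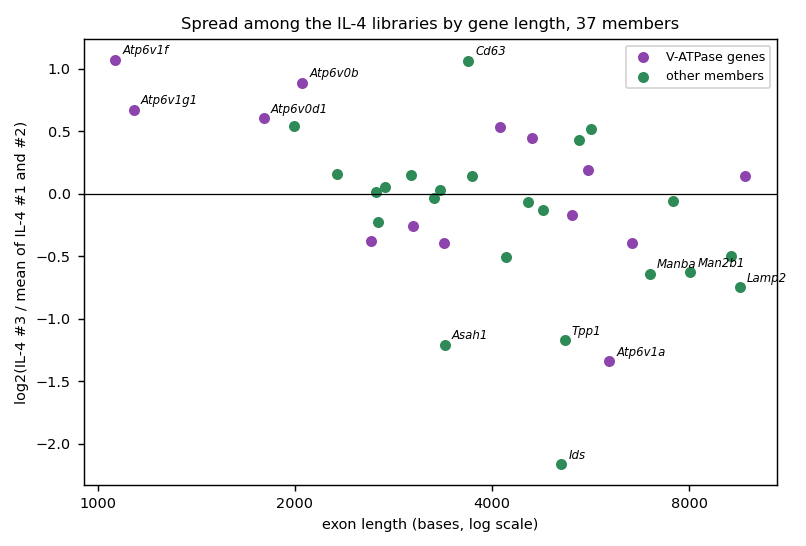
Log2 ratio of IL-4 #3 to the mean of IL-4 #1 and #2 (y axis) against exon length (x axis, bases, log scale) for 37 members, with pump genes in purple and the others in green. Of 19 members with shorter exons 13 lie above 0, among them Atp6v1f, and 6 below, among them Asah1. Of 18 with longer exons 5 lie above 0, among them Tfeb, and 13 below, among them Ids, Atp6v1a and Lamp2.

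Genes of the same organelle outside the 39 members were taken from wider lists. Of 26 other lysosomal hydrolases and activators, 3 rose and 9 fell under IL-4, and 4 rose and 2 fell under IL-6, beside 8.55% and 16.3% of all genes under IL-4 and 4.58% and 3.82% under IL-6. Adjusted for the set, 3 rose and 3 fell under IL-4 and none passed under IL-6 (1.15% of all genes rose and 0.312% fell). The rises under IL-4 were in Acp5, tartrate-resistant acid phosphatase (log2 fold change 3.18, adjusted p = 0.000134), Hgsnat, which acetylates heparan sulfate (2.11, adjusted p = 1.67e-05), and Naaa, an acid amidase (1.71, adjusted p = 0.000286). Sgsh, heparan N-sulfatase, fell under IL-4 (−2.52, adjusted p = 2.73e-05). Genes of heparan sulfate breakdown named here thus went different ways under IL-4, with Hgsnat higher and Sgsh, Idua and Naglu lower. The members Ids and Gusb, which also act in that breakdown, did not pass under IL-4 (adjusted p = 0.453 and 0.684).

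Of 19 other lysosomal membrane proteins tested, 1 rose and 7 fell under IL-4 (8.55% and 16.3% of all genes). Under IL-6, 1 rose and 3 fell (4.58% and 3.82% of all genes). Adjusted for the set, 1 rose and 5 fell under IL-4 (4.57% and 6.09% of all genes), and none passed under IL-6 (1.15% and 0.312%). The cation channel gene Mcoln3 fell under IL-4 (−3.65, adjusted p = 8.6e-05) and under IL-6 (−1.89, adjusted p = 0.0066, and 0.172 adjusted for the set), and its level was low, at 3.62 to 4.80 FPKM in control. Mcoln2, of the same family as Mcoln1, was higher under IL-6 (1.33, adjusted p = 0.00217, and 0.128 adjusted for the set). Tpcn1, a further channel gene, and Scarb2, the receptor that carries glucocerebrosidase, fell under IL-4 (−1.94 and −1.01).

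Of 4 other V-ATPase isoforms tested, Atp6v1g2 fell under IL-4 (−1.74, adjusted p = 0.00556, and 0.1 adjusted for the set), and its control level was low, at 2.99 to 4.25 FPKM. Of 9 assembly factors Rogdi fell under IL-4 (−1.65, adjusted p = 0.000134). Of 7 sorting genes 2 fell under IL-4, among them Sorl1 (−2.41, adjusted p = 0.00418, and 0.0807 adjusted for the set), and none passed under IL-6. Of 16 genes of the TFEB family and of lysosomal nutrient sensing, 1 rose and 4 fell under IL-4, among them Rragd (−1.49), Flcn (−1.25) and Fnip2 (−1.23), which encode parts of the machinery that senses amino acids at the lysosome. Adjusted for the set, Rragd passed (adjusted p = 0.0178), whereas Flcn (0.0625) and Fnip2 (0.456) did not. Under IL-6, 1 of these 16 fell. Of 8 autophagy genes 1 fell under IL-4 and 2 under IL-6, and none passed adjusted for the set. Beside the counts of these lists, 8.55% of all genes rose and 16.3% fell under IL-4, and 4.58% rose and 3.82% fell under IL-6.

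Neutrophil transcripts differed between groups as well. The summed FPKM of 10 neutrophil and granulocyte genes was 4923 to 8792 in control, 2197 to 4137 under IL-4 and 7967 to 11127 under IL-6, all 10 genes being detected. S100a8 and S100a9 supplied most of this sum, its control and IL-6 ranges overlapped, and single genes varied: Retnlg lay at 95.1 to 195 FPKM under IL-6 against 181 to 349.7 in control. Over the 16 of 18 skeletal muscle genes whose fragments were read back, set A held 4.10 to 13.3 and set B 20.0 to 30.9 of every 1000000 fragments, and the dendritic cell and lymphocyte lists summed to at most 8.08 and 21.1 FPKM in any library. The part of these transcripts in the lysosomal results was not tested.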

How the data were processed

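Libraries of Mϕs without cytokine, under IL-4 or under IL-6 (n = 3 each) were analysed from FPKM values that the authors deposited for 53379 genes. The submitters' processing notes name STAR 2.4.2a and Cufflinks 2.2.1 with GRCm38. Low FPKM values (100 fragments or fewer) were whole multiples of what 1 fragment is worth over the M21 exon length in 100.0% of 100882 values (tolerance 0.05 fragments), so fragments and library totals were read back. Whether strand was used in counting is not given in the sources used here. Of the identifiers, 94.8% matched GENCODE M21 with their version. Atp6v0e and Npc1 did not, so they have no length or coordinates here. Columns of no sample numbered 0.

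The deposited FPKM were transformed to log2(FPKM + 0.1), and the 12824 genes averaging 0.5 FPKM or more entered a linear model in limma 3.58.1 under R 4.3.3 (9 libraries, 3 groups, eBayes with trend and robust), with two-sided tests and Benjamini-Hochberg adjustment over all genes tested. An adjusted p under 0.05 passed, and all adjusted p-values are from this test unless an alternative is named. Log2 fold changes on this scale understate changes of low genes. Single shares were compared with an exact permutation test. Tables and plots used matplotlib 3.10.9, pandas 2.3.3 and numpy 2.4.6 in Python 3.11.15, and the fit was tested on simulated data.

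Members and lists were chosen with earlier results of these data known. Given in every library were the 4 largest changes among members that passed in each contrast, Tfeb, Tfe3 and the members with the highest and lowest mean. Genes of other lists were named where they passed and changed by 1 or more on the log2 scale against control, at most 4 per list and contrast. Other members given per library were chosen after their values were seen.

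The alternatives were pseudocounts of 1 and 0.01, no filter, a mean FPKM of at least 5, median-ratio rescaling, quantile normalization, only the groups compared, the library number as a block, the set of libraries as a term, limma voom on the fragments, a minimum change of 1 on the log2 scale, and leaving out each library. Rescaling with the set term and rescaling without IL-4 #3 were chosen after seeing the data. The set was defined by the summed FPKM of 14 intestinal genes. The library numbers are shared between groups, and whether they mark the same mouse is not stated.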

Additional observations from a re-analysis of the deposited data

How the results depend on the processing

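The counts of members that passed are 4 higher and 8 lower with IL-4, 0 and 7 with IL-6, and 4 and 11 for IL-6 against IL-4. Pseudocounts of 1 and 0.01 and a mean FPKM of at least 5 left these counts as they were. Without a filter the IL-4 rises were 2 and the falls 7, with 6 falls with IL-6 and 9 genes lower with IL-6 than IL-4. With only the groups compared there were 2 rises and 5 falls with IL-4, 10 falls with IL-6, and 3 genes higher and 8 lower with IL-6 than IL-4. Quantile normalization gave 3 rises and 8 falls with IL-4, 7 falls with IL-6, and 5 higher and 9 lower with IL-6 than IL-4, and it changed the call of 3, 4 and 5 members. Median-ratio rescaling gave 4 falls with IL-4, 4 falls with IL-6 and 1 gene higher with IL-6 than IL-4. Adjusting for the set gave 4 falls with IL-4 and 0 with IL-6. Rescaling with the set term gave 2 falls with IL-4, 1 with IL-6 and 1 gene higher with IL-6 than IL-4, and rescaling without IL-4 #3 gave 11 falls with IL-6 and 17 genes lower with IL-6 than IL-4. Requiring a change of 1 or more on the log2 scale left 2 rises and 1 fall with IL-4, 0 falls with IL-6, and 0 genes higher and 2 lower with IL-6 than IL-4. Leaving out a library gave 2 to 6 rises and 5 to 9 falls with IL-4, 1 to 14 falls with IL-6, and 2 to 5 genes higher and 6 to 16 lower with IL-6 than IL-4. Shares of all genes moved with the setting too. With IL-6, 3.82% of all genes fell in the main fit, 3.67% after rescaling, 0.312% adjusted for the set and 12.4% without IL-4 #3. Lower with IL-6 than IL-4 were 13.3%, 17.2%, 14.6% and 18.5% of all genes in the same fits. Where no share of all genes is given, a count does not set the members apart from all genes. The IL-4 rises were 2 without Control #1, Control #3 or IL-4 #2, and the IL-4 falls were 5 without Control #2 or Control #3. Against IL-4, the genes higher with IL-6 were 2 without IL-6 #2 or IL-6 #3, and those lower were 6, 7 and 6 without IL-6 #1, #2 and #3. With the library number as a replicate block, 6 members fell with IL-6 and 12 were lower with IL-6 than IL-4. The block changed the call of Gusb (IL-6 against control, adjusted p = 0.0747) and of Cd63 (IL-6 against IL-4, adjusted p = 0.0414) and no other call of a member. Deviations from the group means of same-numbered libraries gave r from −0.415 to 0.521. Between control and IL-6 the same-numbered libraries had r of 0.408, 0.201 and 0.166. Each control library there correlated best with its own number, whereas IL-6 #3 had 0.176 with Control #2. Pairs with IL-4 libraries were less even. These correlations do not settle whether the numbers mark pairs, and the main fit used no block. A single reversal was seen in Manba, IL-6 against IL-4: 0.01 became −0.27 (adjusted p = 0.0294) after rescaling without IL-4 #3. The cause of these changes was not tested. The number of libraries, 3 per group, limits the precision of each value.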
